A study of Mus musculus with 12 samples.

Results

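The 9 genes described here were picked as near 0 in mouse livers given a control hairpin or a hairpin against Rgs16 and high in livers given a hairpin against G0s2. They are Elovl7, 5330417C22Rik, Sprr1a, Apela, Lrtm2, Kcnj14, Ano3, Slc1a1 and Nudt11, which makes 9 of the 55536 genes measured. They were chosen by the same counts that are given below, so their levels and differences between groups are a description and carry no test. The label of the list holds for 8 of the 9 genes in the control livers. The exception is 5330417C22Rik, which had 83 to 102 counts in every control sample.

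Total RNA was sequenced from 12 liver samples in 3 groups of 4, named shLacZ, shG0s2 and shRgs16. All groups were wild-type C57BL/6J mice (the strain field says C57BL/6) aged 8 weeks that received, by tail vein, 0.1 OD of an adenovirus coding for a short hairpin RNA. The hairpin was directed against bacterial lacZ in the control, against G0s2 in the second group and against Rgs16 in the third, so the controls carried virus and hairpin too. The liver was collected on day 12 after the virus, at zeitgeber time 12 (lights off), following 6 h of daytime without food. No uninfected liver and no second hairpin against either gene was analysed here. Whether the 4 replicates of a group are different animals is not stated in the labels, so the adjusted p-values reflect a spread that may be technical.

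Total counts per sample were 18458222 to 27170419, and shG0s2 replicate 2 was the shallowest. A count of 0 allows up to 3 counts, which corresponds to 0.1004 to 0.1416 CPM (counts relative to library size, scaled by the trimmed mean of M-values, TMM) in a single sample. Over the 4 samples of a group it corresponds to 0.03467 CPM in shLacZ, 0.02748 CPM in shG0s2 and 0.02825 CPM in shRgs16. These limits and the intervals given with count ratios cover counting error only. G0s2, the targeted gene, had 66.6 to 87.4 CPM in shLacZ and 24.6 to 49.3 CPM in shG0s2. Its log2 fold change was -0.98 (SE 0.198, edgeR quasi-likelihood test, adjusted p = 0.003006), but the call was lost with library size as the only scaling (-0.48). In the deposited TPM (transcript abundance corrected for length), G0s2 ranged from 101.0 to 134.8 in shLacZ and from 60.4 to 124.9 in shG0s2, so the groups overlapped. Rgs16 was also lower in shG0s2, at 43.9 to 71.3 CPM, than in shLacZ, at 105 to 212 CPM (log2 fold change -1.32, SE 0.244, adjusted p = 0.002355). In TPM, Rgs16 ranged from 46.96 to 94.27 in shLacZ and from 31.07 to 51.24 in shG0s2, so these groups overlapped. In shRgs16 it stood at 14.4 to 37.4 CPM. The tissue label was checked against 10 hepatocyte markers, all of which were detected, with a summed level of 36670 to 70010 CPM over the 12 samples.

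The 9 genes have no common pathway. G0S2 protein inhibits adipose triglyceride lipase, the enzyme that begins the breakdown of stored fat, and RGS16 makes active G protein alpha subunits switch off faster. Most of them are best known from tissues other than liver. Elovl7 lengthens fatty acyl chains and Nudt11 hydrolyses diphosphoinositol polyphosphates. Slc1a1, Kcnj14 and Ano3 are membrane proteins best known from neurons and, for Slc1a1, from kidney and gut. Apela is a peptide hormone of the embryo, and Sprr1a is a building block of the cornified envelope of squamous epithelium.

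The promoters of 3 genes are shown as examples that differ in CpG content, with 0, 7 and 30 CpGs. RefSeq (GRCm38.p6) promoter windows, 250 bases before to 50 after a start, matched 8 of the 9 genes in 10 windows, with 5330417C22Rik listed under its symbol Elapor1. The stretches printed run 5′ to 3′ on the gene's strand and stop before the annotated start of both RefSeq and GENCODE. Capitals mark matches to the motifs searched. Sprr1a is on the minus strand at chr3:92485896-92486131, Apela on the minus strand at chr8:65037337-65037586 and Elovl7 on the plus strand at chr13:108214154-108214403.
Sprr1a: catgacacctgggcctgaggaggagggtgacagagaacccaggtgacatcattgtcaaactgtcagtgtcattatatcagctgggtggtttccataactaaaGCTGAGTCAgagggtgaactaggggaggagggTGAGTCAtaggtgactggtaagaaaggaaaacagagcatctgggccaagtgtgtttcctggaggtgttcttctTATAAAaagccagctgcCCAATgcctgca
Apela: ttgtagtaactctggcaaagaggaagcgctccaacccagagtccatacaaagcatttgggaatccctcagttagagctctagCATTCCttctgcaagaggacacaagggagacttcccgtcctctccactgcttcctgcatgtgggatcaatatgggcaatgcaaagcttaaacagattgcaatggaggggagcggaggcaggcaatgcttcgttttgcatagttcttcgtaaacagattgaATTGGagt
Elovl7: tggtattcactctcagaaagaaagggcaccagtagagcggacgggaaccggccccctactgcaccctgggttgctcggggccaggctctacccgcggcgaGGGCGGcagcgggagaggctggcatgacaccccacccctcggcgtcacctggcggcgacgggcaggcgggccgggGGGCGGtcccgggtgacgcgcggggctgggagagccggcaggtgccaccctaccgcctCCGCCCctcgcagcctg

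The Sprr1a window held no CpG and had a GC content of 48.7%. It carried a TATAAA match at -43 to -38, a CCAAT match at -26 to -22 and the AP-1 motif TGANTCA at -146 to -140 and at -116 to -110, counted from the RefSeq start. The first of these overlaps a match to the antioxidant response element core TGACNNNGC on the other strand. AP-1 is the dimer of Jun and Fos proteins that responds to stress and growth signals. The Apela window, with a GC content of 49.0% and 7 CpGs, held matches on the other strand to the TEAD motif GGAATG and to CCAAT. The Elovl7 window had a GC content of 74.0%, 30 CpGs and 3 matches to the GC box GGGCGG.

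No motif ran through the whole list. Of 32851 promoter windows of all genes, 7.8% held TGANTCA, against 1 of the 10 windows of these genes. GGGCGG was in 35.7% of all windows and in 4 of these 10, CCAAT in 37.4% and 2, TATAAA in 13.6% and 2, GGAATG in 14.7% and 2, and TGACNNNGC in 12.4% and 1. The motifs TGACGTCA of CRE, TTTNGCGC of E2F and TCAGCACC, a part of the RE1 site of REST, were in 1.8%, 1.4% and 1.6% of all windows and in 0 of these 10. All motifs were searched on both strands. The GC content of the 10 windows ranged from 43.7% for one start of Ano3 to 81.0% for Nudt11, and 6 of the 10 were above the median of all windows, 52.7%. A match is a run of letters, not a measured binding site.

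**Figure D1:**
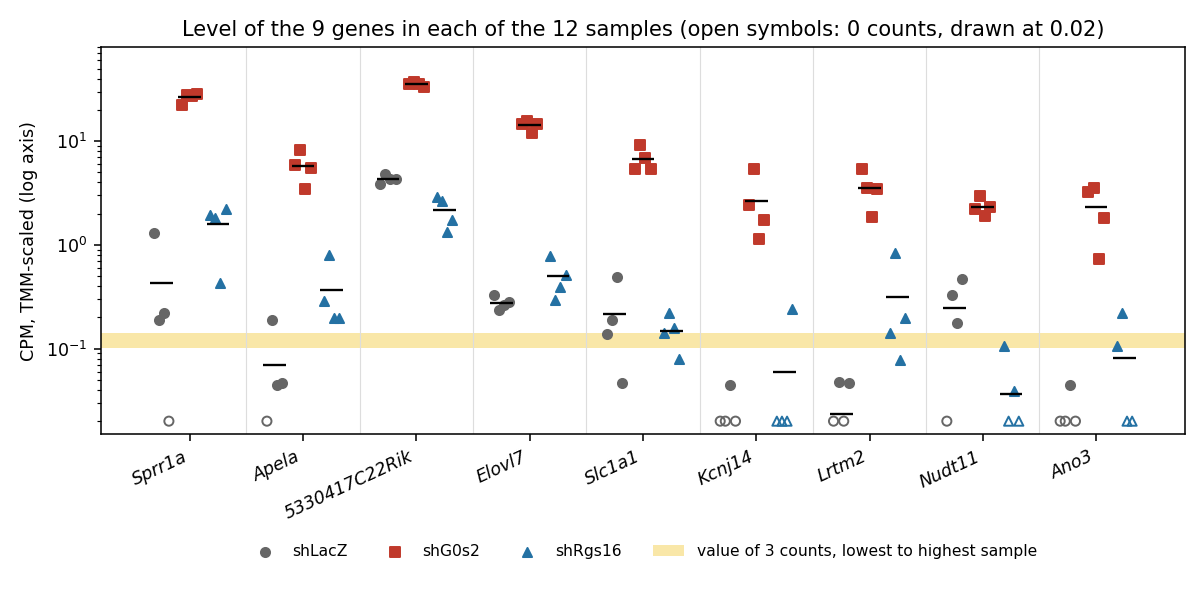
Levels of the 9 genes in each sample (vertical log axis, TMM-scaled CPM), ordered from left to right by mean TPM in shG0s2, with bars at the group means, open symbols at 0.02 for samples with 0 counts and a band at the value of 3 counts. The 4 shG0s2 samples of each gene lie above all other samples, and 5330417C22Rik stands apart by its control level of 3.86 to 4.81 CPM.

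In all 9 genes every shG0s2 sample was above every shLacZ sample and above every shRgs16 sample. Over all genes tested, 28.2% and 20.4% separated in that way in the same comparisons. The 9 genes were chosen for this pattern, so nothing is read from these counts. The filter on low counts was passed by 9 of 9 genes in both comparisons that include shG0s2, but by 2 of 9 in shRgs16 against shLacZ, where most of them had too few counts. A gene that passes only through its high group has to differ.

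Among the enzymes, Elovl7 (ENSMUSG00000021696, chr13:108214404-108285683) catalyses the first, condensing step of fatty acid elongation in the endoplasmic reticulum. Its deposited counts were 7, 5, 6 and 6.01 in shLacZ, 434, 362, 346 and 400.76 in shG0s2, and 22, 8, 10 and 13 in shRgs16. No shG0s2 sample came near the other groups. The mean level was 0.277 ± 0.0375 CPM in shLacZ, 14.2 ± 1.58 CPM in shG0s2 and 0.496 ± 0.214 CPM in shRgs16 (SD, n = 4 each). Summed counts per scaled library were 51.0 times higher in shG0s2 than in shLacZ (exact 95% interval 34.1 to 79.8) and 28.3 times higher than in shRgs16 (21.5 to 38.0).

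Nudt11 (ENSMUSG00000073295, chrX:6047453-6055110) codes for a Nudix hydrolase that removes a phosphate from inositol pyrophosphates, and has a close relative, Nudt10, on the same chromosome. Its deposited counts were 0, 7.43, 4 and 10 in shLacZ, 65.89, 67.77, 54.63 and 63.41 in shG0s2, and 3, 0, 1 and 0 in shRgs16. Many of these are not whole numbers because reads were shared out between relatives. Of the distinct 50-base stretches of Nudt11 transcripts, 16.6% were also in Nudt10, and the counts of both genes added up to a whole number, within 0.01, in 12 of 12 samples. The sums were 1, 9, 6 and 11 in shLacZ, 104, 120, 98 and 103 in shG0s2, and 7, 5, 1 and 0 in shRgs16. The pair together thus separated in the same way as Nudt11 alone, while the split between them is uncertain. Alone, Nudt11 had 2.34 ± 0.444 CPM in shG0s2 and 0.245 ± 0.202 CPM in shLacZ, a ratio of summed counts of 9.51 (6.09 to 15.6). It was the gene with the lowest shRgs16 level relative to the control, at a ratio of 0.155 (0.0387 to 0.460), although single samples of the 2 groups overlapped. That ratio and its interval take the uncertain split as given, and Nudt10 stood at 1.222 (0.3886 to 4.174) in the same comparison.

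Slc1a1 (ENSMUSG00000024935, chr19:28835049-28913960) codes for a high-affinity carrier of glutamate, aspartate and cysteine. Counts were 3, 4, 11 and 1 in shLacZ, 159, 213, 196.48 and 148 in shG0s2, and 4, 6, 4 and 2 in shRgs16. The ranges of the other 2 groups overlapped, and no shG0s2 sample came near them. The means were 0.215 ± 0.1899, 6.69 ± 1.85 and 0.149 ± 0.0569 CPM in the same order (SD, n = 4 each). The shG0s2 sum was 29.9 times that of shLacZ (18.99 to 49.9) and 43.5 times that of shRgs16 (26.6 to 76.6). The gene 4430402I18Rik, which lies over the 3′ part of Slc1a1 on the opposite strand and shares 31.0% of its 50-base stretches, had 7.54 to 15 counts in shG0s2 and 9.08 to 18.03 in shLacZ. The overlapping gene was not called in shG0s2 (log2 fold change -0.58, SE 0.370, edgeR, adjusted p = 0.1978). Whether counting used strand is not given in the sources used here, so reads from the shared part cannot be assigned with certainty.

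Kcnj14 (ENSMUSG00000058743, chr7:45816460-45824782) codes for an inward rectifier potassium channel subunit described in motor neurons. It had 0, 0, 1 and 0 counts in the shLacZ samples, 72, 124, 33 and 48 in shG0s2, and 0, 0, 0 and 6 in shRgs16. Its summed ratio to shLacZ, 219.6, rests on 1 control count and had an interval of 39.1 to 8703. Against shRgs16 the ratio was 44.9 (20.4 to 123.4), and all 6 shRgs16 counts came from 1 sample. Among the 9 genes Kcnj14 varied most within shG0s2, with a coefficient of variation of 70.6% (2.67 ± 1.89 CPM, SD, n = 4). A processed pseudogene on another chromosome, Gm5522, shares 30.8% of its 50-base stretches and had 0 counts in all 12 samples.

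Ano3 (ENSMUSG00000074968, chr2:110655201-110950923) codes for an anoctamin, a family of calcium-activated chloride channels and lipid scramblases, and is expressed in brain. Its counts resembled those of Kcnj14, with 0, 0, 1 and 0 in shLacZ, 97, 81, 21 and 50 in shG0s2, and 3, 6, 0 and 0 in shRgs16. Only 1 read was seen in 4 control samples, and in shRgs16 no more than 6 in any sample. The shG0s2 mean was 2.33 ± 1.30 CPM (SD, n = 4), and replicate 3, at 0.728 CPM, was the lowest shG0s2 value of any of the 9 genes. The ratio of summed counts was 197.4 (35.1 to 7826) to shLacZ and 26.9 (13.95 to 59.5) to shRgs16. Muc15, a gene that lies inside Ano3 on the opposite strand, had 0 counts in all 12 samples.

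Apela (ENSMUSG00000079042, chr8:65028417-65037336) codes for a secreted peptide that activates the apelin receptor and acts in early heart and vessel formation. Counts were 0, 3.5, 1 and 1 in shLacZ, 175, 186.7, 99 and 152 in shG0s2, and 8, 21.73, 5.44 and 4.51 in shRgs16. All 4 shRgs16 samples were above all 4 controls, which goes against the word only in the label of the list. The closest samples were barely apart, at 0.1958 CPM (5.44 counts) in shRgs16 and 0.1888 CPM (3.5 counts) in shLacZ. The ratio of summed counts was 81.0 for shG0s2 to shLacZ (37.0 to 221.5), 14.9 for shG0s2 to shRgs16 (10.8 to 21.1) and 5.43 for shRgs16 to shLacZ (2.29 to 15.7). An overlapping transcript on the same strand, Gm45886, shares 26% of its 50-base stretches. It was given 12.3 counts in 1 shG0s2 sample and 0 in the other 3, so the split had little effect on the difference between groups.

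Sprr1a (ENSMUSG00000050359, chr3:92483952-92485895) codes for a small proline-rich protein that transglutaminases crosslink into the cornified envelope, and is also known to rise in injured nerve. It had 28, 4, 5 and 0 counts in the shLacZ samples, 659, 644, 787 and 784 in shG0s2, and 54, 50, 11 and 56 in shRgs16. The control group holds 1 sample, replicate 1, with more counts than the other 3 together. The means were 0.428 ± 0.591, 26.5 ± 2.98 and 1.60 ± 0.799 CPM in the same order (SD, n = 4 each). The ratio to shLacZ was 61.6 (44.6 to 87.6) and the ratio to shRgs16 was 16.35 (14.01 to 19.2). Without shLacZ replicate 1 the fitted log2 fold change against the control was 7.54 instead of 5.94 (SE 0.497), and that of shRgs16 against shLacZ was 3.49 instead of 1.89 (SE 0.847).

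Lrtm2 (ENSMUSG00000055003, chr6:119315133-119330766) codes for a membrane protein with leucine-rich repeats and lies inside Cacna2d4, a calcium channel subunit gene on the opposite strand. Counts of 0, 1, 0 and 1 were found in shLacZ, 162, 81, 53 and 96 in shG0s2, and 4, 23, 2 and 5 in shRgs16. The shRgs16 samples were again all above the controls, and replicate 2 held 23 of the 34 counts. The lowest shRgs16 sample, at 2 counts (0.0783 CPM), and the highest control, at 1 count (0.0472 CPM), were both under the limit of 3 counts. This separation thus rests on single counts. The ratio of summed counts was 155.3 (42.7 to 1287) to shLacZ, 11.2 (7.89 to 16.4) to shRgs16, and 13.9 (3.55 to 119) for shRgs16 to shLacZ. Cacna2d4 had 2 counts in all control samples, 21 in shG0s2 and 15 in shRgs16 over 4 samples each. Its ratio of summed counts to shLacZ was 8.32 (2.03 to 73.2) in shG0s2 and 6.11 (1.42 to 55.1) in shRgs16.

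5330417C22Rik (ENSMUSG00000040412, chr3:108455694-108536536) is the gene now called Elapor1, which codes for a transmembrane protein of endosomes and lysosomes. Counts were 83, 102, 98 and 92 in shLacZ, 1063, 861, 1030 and 903 in shG0s2, and 81, 72, 34 and 44 in shRgs16. It was the only one of the 9 genes with more than 28 counts in any control sample, and its shRgs16 CPM were all below the controls. In TPM these 2 groups overlapped, at 0.64 to 0.81 in shLacZ and 0.50 to 0.74 in shRgs16. The means were 4.34 ± 0.389, 35.4 ± 1.91 and 2.15 ± 0.730 CPM in the same order (SD, n = 4 each), and the 4 shG0s2 values had a coefficient of variation of 5.398%. The ratio to shLacZ was 8.15 (7.33 to 9.09), the ratio to shRgs16 was 16.2 (14.2 to 18.6), and shRgs16 stood at 0.502 of shLacZ (0.424 to 0.593).

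**Figure D2:**
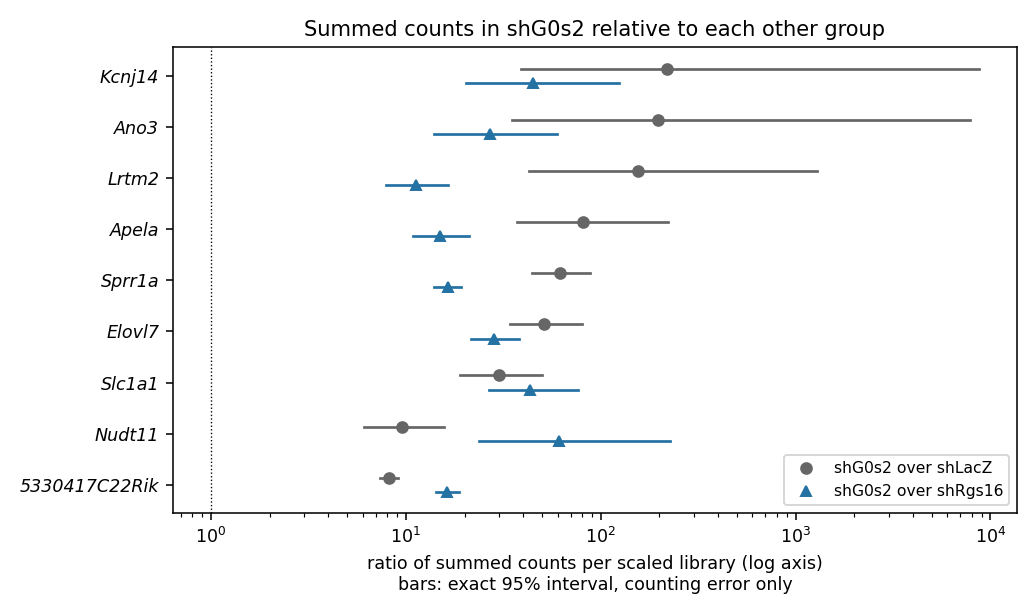
Summed counts of the 4 shG0s2 samples per scaled library, relative to the 4 shLacZ samples (circles) and to the 4 shRgs16 samples (triangles), on a log axis with exact 95% intervals that cover counting error only. Kcnj14, Ano3 and Lrtm2 have the highest ratios to shLacZ, 219.6, 197.4 and 155.3, and the widest intervals, since their controls hold 1 or 2 counts, while 5330417C22Rik has the lowest, 8.15.

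The fitted log2 fold changes of shG0s2 against shLacZ ran from 3.04 (SE 0.0864) for 5330417C22Rik to 7.32 (SE 0.919) for Kcnj14. Against shRgs16 they ran from 3.47 for Lrtm2 to 5.78 for Nudt11. For genes with a few control counts the fitted value depends on single samples. Without shLacZ replicate 3 it was 9.04 for Kcnj14, 8.85 for Ano3 and 5.69 for Slc1a1 (main values 7.32, 7.13 and 4.91), and without shLacZ replicate 2 it was 7.34 for Apela (6.27). Against shRgs16, leaving out shRgs16 replicate 4 gave 9.06 for Kcnj14 (5.42). Leaving out replicate 2 gave 4.61 for Apela (3.91), 4.62 for Lrtm2 (3.47) and 5.76 for Ano3 (4.70), and leaving out replicate 1 gave 7.03 for Nudt11 (5.78).

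The levels reached in shG0s2 can be compared between genes in TPM. Sprr1a reached 63.4 to 86.0 TPM, with a mean of 76.8 TPM that exceeded 93.8% of the 25882 genes above 0 in that group. Next came Apela, at 7.49 to 19.7 TPM, and 5330417C22Rik, at 9.46 to 11.4 TPM, whose ranges overlapped. Elovl7, at 4.68 to 8.08 TPM, overlapped Apela and stayed below 5330417C22Rik and above Slc1a1, at 2.34 to 4.45 TPM. Kcnj14 (0.84 to 3.68 TPM), Lrtm2 (0.82 to 2.44 TPM), Nudt11 (1 to 1.75 TPM) and Ano3 (0.17 to 1.09 TPM) overlapped one another, and Ano3, with a mean of 0.648 TPM, exceeded 41.4% of the genes above 0. Of the list, only Sprr1a was thus among the most abundant 10th of transcripts in shG0s2.

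The 4 shG0s2 samples did not rank alike. In CPM, replicate 2 was the highest for 7 of the 9 genes and replicate 3 the lowest for 6 of 9. Kcnj14 fell from 5.396 CPM in replicate 2 to 1.14 CPM in replicate 3, and Ano3 from 3.53 to 0.728 CPM. Apela went from 8.14 to 3.43 CPM between the same samples. Replicate 2 was also the shallowest library of the series. In shRgs16 replicate 2 was the highest for 4 of the 9 genes, Apela, Lrtm2, Ano3 and Slc1a1, and the lowest for Elovl7 and Nudt11. The part of depth in these orders was not tested.

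**Figure D3:**
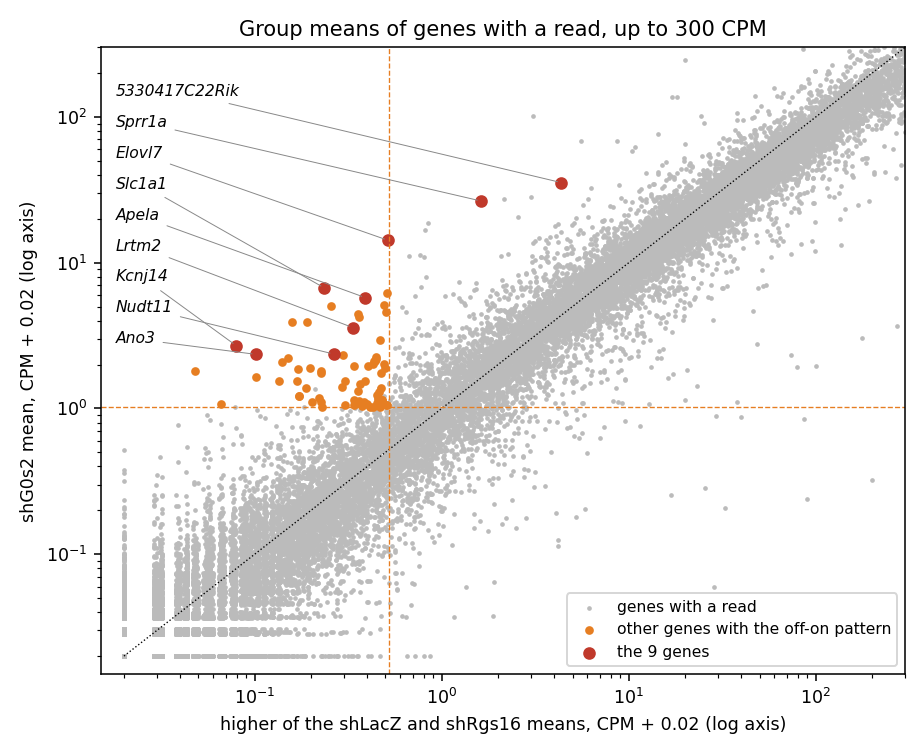
Mean level in shG0s2 (vertical log axis) against the higher of the shLacZ and shRgs16 means (horizontal log axis) for genes with a read, in CPM plus 0.02, with dashed lines at the limits of the off-on pattern. Of the 9 genes 7 lie in the upper left field with 63 other genes, and Sprr1a and 5330417C22Rik lie to the right of it.

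How common the pattern was can be read from a count over all genes. A gene was taken to be off in the other groups at a mean under 0.5 CPM in shLacZ and in shRgs16, and on at a mean of at least 1 CPM in shG0s2 with every shG0s2 sample above all others. This held for 70 genes, 63 of them protein-coding, out of 14225 genes with a read and a shLacZ mean under the limit. Among the 70 were 7 of the 9 genes. Elovl7 was just inside, with 0.496 CPM in shRgs16, and Sprr1a outside, with 1.60 CPM in that group. The mirror pattern, on in shRgs16 and off in shLacZ and shG0s2, held for 15 genes. By mean shG0s2 level the first 5 of the 70 were Elovl7, Slc1a1, Amn (6.14 CPM), Apela and Shc2 (5.13 CPM). Amn codes for amnionless, the membrane anchor of the cubilin receptor of kidney and gut, and Shc2 for a neuronal adaptor of receptor tyrosine kinases.

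The genes whose profiles over the 12 samples were most like the mean profile of the 9 were found by Pearson's r of log2 CPM among 12438 genes, as a description without a p. They were Amn (r = 0.994), Lipn (0.993), Car2 (0.989), Jpt2 (0.989) and Slc48a1 (0.986), and 150 genes reached 0.95. The samples share their groups, so such values mainly reflect the difference between groups. Lipn, a lipase of differentiating keratinocytes, went from 0.279 to 0.884 CPM in shLacZ and 0.587 to 0.982 CPM in shRgs16 to 12.4 to 20.6 CPM in shG0s2. Car2, a carbonic anhydrase, and Slc48a1, a haem transporter, were present in all groups, with means of 11.9 and 46.4 CPM in shLacZ and 42.2 and 157.2 CPM in shG0s2. Among the 9, the correlation of each with the mean of the other 8 ran from 0.865 for Nudt11 to 0.981 for Elovl7.

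**Figure D4:**
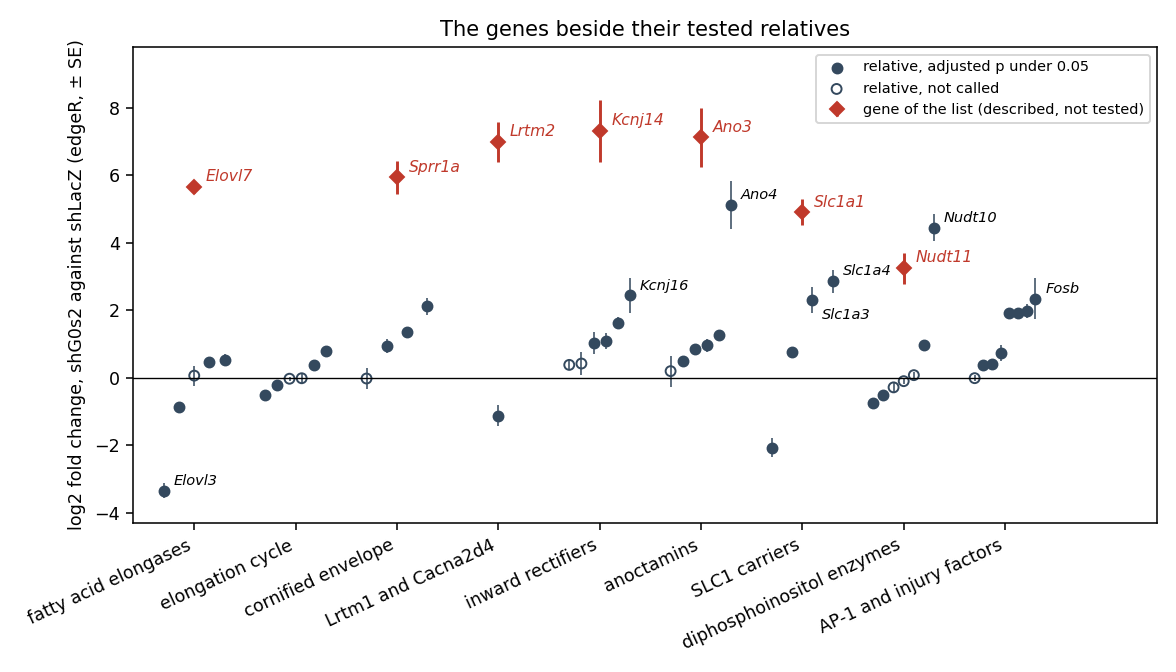
Log2 fold change of shG0s2 against shLacZ (edgeR, bars ± SE) for the tested relatives of each gene, filled where the adjusted p was under 0.05, with 7 of the 9 genes as diamonds in the column of their family. Ano4 (5.12) and Nudt10 (4.45), which passed the filter through shG0s2 alone, are the highest relatives, and Elovl3 (-3.35) is the lowest.

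Relatives of the 9 genes were not used to choose them and were tested over all genes with edgeR. In shG0s2 against shLacZ 31.3% of all tested genes were called higher and 29.2% lower, with a median log2 fold change of 0.009. In shRgs16 against shLacZ the shares were 24.6% and 24.5%. With library size as the only scaling the median of all genes in shG0s2 moved up to 0.498, and the calls split into 10067 higher and 1246 lower in place of 4875 and 4556. Small changes below are therefore relative to the TMM scaling. Nudt10, Ano4, Kcnj9, Kcnj16, Slc1a3 and Fosb had under 10 counts in every control sample and passed the filter through shG0s2 alone. They are included in the counts of called genes below, but their calls follow in part from that filter and their tests are not given.

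Of the 5 other fatty acid elongases tested, 2 were higher and 2 lower in shG0s2, with a median of 0.06. Elovl3, a liver elongase of saturated very long chains, fell from 106.8 to 193.3 CPM in shLacZ to 10.6 to 15.3 CPM in shG0s2, with no overlap (log2 fold change -3.35, SE 0.229, adjusted p = 7.617e-06). Elovl2, which lengthens polyunsaturated chains, was also lower (-0.86), while Elovl1 (0.46) and Elovl6 (0.53) were higher. The Elovl6 call was lost without shLacZ replicate 1 (0.46) or 3 (0.53) or shG0s2 replicate 2 (0.54). The same call was lost under the block of replicate numbers (0.51) and without the filter on low counts (0.53). Of 6 enzymes of the later steps of the elongation cycle, 2 were higher and 2 lower (median -0.02), but 5 were higher and 0 lower with library size alone. The relatives of Elovl7 thus went both ways.

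Nudt10 had 1, 1.57, 2 and 1 counts in the shLacZ samples, 38.11, 52.23, 43.37 and 39.59 in shG0s2, and 4, 5, 0 and 0 in shRgs16. The ratio of summed counts of shG0s2 to shLacZ was 22.85 (10.29 to 63.13). These values are not independent of Nudt11, since reads were shared between both genes. Of the 7 tested enzymes that make or break diphosphoinositol phosphates, Nudt10 and Ppip5k1 were higher, Ip6k1 and Ppip5k2 lower and 3 not called (median -0.10). With library size alone 4 were higher and 0 lower.

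Among the SLC1 carriers, 3 of 4 tested were higher and 1 lower in shG0s2 (median 1.54). Slc1a2, the main glutamate carrier of pericentral hepatocytes, fell from 165.1 to 192.6 CPM in shLacZ to 21.0 to 54.1 CPM in shG0s2 (log2 fold change -2.08, SE 0.288, adjusted p = 0.0006033). In shRgs16 the same gene was higher than the control, at 210.5 to 265.1 CPM (0.39, SE 0.0762, adjusted p = 0.001329), a call lost when all 12 samples were in 1 model. Slc1a4, a carrier of neutral amino acids, rose from 1.13 to 4.05 CPM to 15.6 to 24.9 CPM in shG0s2 (2.87, SE 0.341, adjusted p = 0.0001436). Slc1a3, the glutamate carrier of glia, had 2, 7, 7 and 4 counts in the shLacZ samples and 30, 20, 50 and 27 in shG0s2. All 4 tested carriers were higher in shRgs16. The Slc1a4 call there (0.90) was lost without shLacZ replicate 3 (0.78) and without shRgs16 replicate 1, 2 or 4 (0.82 to 0.92). Without the filter on low counts this shRgs16 call was lost too (0.90). Slc1a3, with 11 to 28 counts per shRgs16 sample, passed the filter there through shRgs16 alone.

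Of 6 inward rectifier channel genes tested, Kcnj2, Kcnj9, Kcnj10 and Kcnj16 were higher in shG0s2 and 0 were lower (median 1.06). Kcnj16 had 0 to 4 counts in each control sample and 11.03 to 17.05 in each shG0s2 sample, a ratio of summed counts of 5.65 (2.68 to 13.7). Kcnj9 lost its call without shLacZ replicate 3 (0.95), by DESeq2 (1.03) and without the filter on low counts (1.03). Of 6 anoctamins tested, 5 were higher and 0 lower (median 0.90). Ano4 had 1, 0, 0 and 0 counts in the shLacZ samples, 19, 19, 12 and 12 in shG0s2 and 7, 5, 7 and 4 in shRgs16, and its ratio of summed counts to shLacZ, 49.1, had an interval of 8.50 to 1972. It was thus above the control in both hairpin groups. Ano3 in shRgs16 had 0 counts in 2 of 4 samples, and its ratio of summed counts to shLacZ was 7.335 (1.016 to 321.5). Ano6, a scramblase found in most cells, was higher by 1.25 (SE 0.0696, adjusted p = 5.659e-08).

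The apelin receptor and its other ligand had too few counts to be tested. Aplnr, the receptor of Apela, had 0, 1, 0 and 1 counts in the shLacZ samples, 8, 7, 4 and 2 in shG0s2, and 5, 3, 1 and 2 in shRgs16. Apln, the apelin gene, had 5 counts in the shLacZ samples, 18 in shG0s2 and 26 in shRgs16 over 4 samples each. The ligand Apela was therefore the only one of the 3 genes with more than 9 counts in a shG0s2 sample. Lrtm1, the nearest relative of Lrtm2, was lower in shG0s2, with 1.31 to 4.02 CPM against 4.44 to 6.05 CPM in shLacZ (log2 fold change -1.13, SE 0.312, adjusted p = 0.009662). That call was lost with library size alone (-0.65). 9330182L06Rik, the relative of 5330417C22Rik, had 22 counts in the shLacZ samples, 54 in shG0s2 and 83 in shRgs16 and had too few counts to be tested in shG0s2 against shLacZ. In shRgs16 against shLacZ it passed the filter through shRgs16 alone, so its test is not given. The ratio of summed counts in that comparison was 3.075 (1.903 to 5.168). Between shG0s2 and shRgs16 this relative was not called (-0.67, SE 0.362, edgeR, adjusted p = 0.151).

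Of 24 other genes of the cornified envelope, 4 had enough counts to be tested, and Evpl, Ppl and Tgm1 were higher in shG0s2 with 0 lower (median 1.14). Evpl and Ppl code for envoplakin and periplakin, the scaffold of the envelope, and Tgm1 for a crosslinking transglutaminase. Evpl rose from 0.472 to 0.847 CPM to 2.15 to 3.62 CPM (log2 fold change 2.12, SE 0.255). Its lowest shLacZ sample, at 10 counts, was just under the filter limit. Evpl thus passed the filter only with the help of its shG0s2 counts, and its test is not given. All 3 were higher in shRgs16 as well, but there the Ppl call (0.79) was lost in 6 of the 8 analyses without 1 sample (0.68 to 0.81). Without the filter on low counts that call was lost too (0.79). Between shG0s2 and shRgs16 the 3 genes differed. Tgm1 was lower in shG0s2 (log2 fold change -1.03, SE 0.197, edgeR, adjusted p = 0.001448), Ppl was higher (0.54) and Evpl was not called. Ivl, the involucrin gene, had 0 counts in every control sample and 12, 7, 6 and 9 in shG0s2, which is at least 8.98-fold higher against 3 counts over the group. Sprr2a2, the next small proline-rich gene, had 0, 0, 1 and 0 counts in the shLacZ samples and 3.75, 3, 6.7 and 9 in shG0s2, a ratio of summed counts of 18.2 (2.96 to 750.9). Most of the list stayed at or near 0. Sprr2a3, Sprr2d, Sprr2e, Sprr2f, Sprr2g, Sprr2i, Sprr2j-ps, Sprr2k, Sprr3, Sprr4, Cnfn and Lce3c had 0 counts in all 12 samples. Sprr1b, Sprr2a1, Sprr2b, Sprr2h, Flg and Tgm3 had at most 4 counts in any sample.

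Factors of the AP-1 family and other injury factors were tested as a list. Of 8 tested, 7 were higher and 0 lower in shG0s2 (median 1.32), and of 7 tested in shRgs16 all 7 were higher. Jun rose by 1.92 (SE 0.106, adjusted p = 7.78e-08) in shG0s2 and by 1.14 (SE 0.125, adjusted p = 3.879e-05) in shRgs16. Atf3 rose by 1.97 (SE 0.204, adjusted p = 7.045e-06) and 1.81 (SE 0.216, adjusted p = 4.648e-05). Klf6 rose by 1.93 and 1.07. Junb was the one not called in shG0s2. The Fosl2 call in shG0s2 was lost in 6 of the 8 analyses without 1 sample and without the filter on low counts (0.37). That of Fos was lost without shG0s2 replicate 1 (0.58). In shRgs16 the Fos call was lost without shLacZ replicate 2 or 3 or shRgs16 replicate 2 or 4 (0.53 to 0.73).

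**Figure D5:**
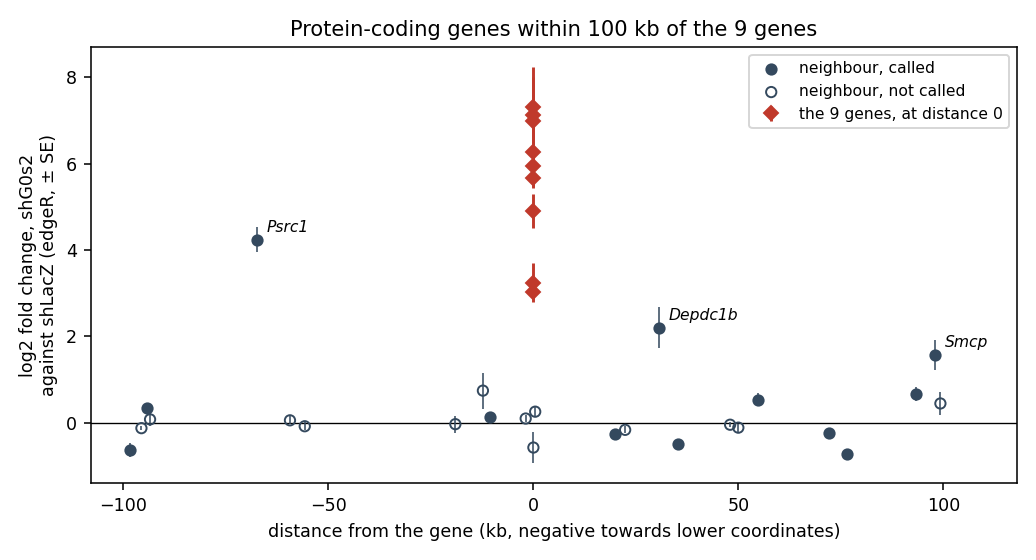
Log2 fold change of shG0s2 against shLacZ (edgeR, bars ± SE) for the 25 tested protein-coding genes within 100 kb of the 9 genes, by distance in kb, with the 9 genes as diamonds at 0. Psrc1 (4.24), Depdc1b (2.203) and Smcp (1.57) are above 1 and the other 22 neighbours lie between -0.73 and 0.74. Depdc1b and Psrc1 passed the filter on low counts only because of their shG0s2 counts.

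The surroundings of the 9 genes were counted as well. Within 100 kb lay 52 other protein-coding genes, of which 25 were tested. In shG0s2 7 of these were higher, 5 lower and 13 not called, and 20 were higher and 1 lower with library size alone. Over all tested genes 31.3% were called higher and 29.2% lower, so nothing particular to these loci is read from the counts. The nearest neighbour, Grwd1, a gene 441 bases from Kcnj14, stood at 0.26 on the log2 scale (SE 0.106, adjusted p = 0.05301), and Cyth2, 1879 bases away on the other side, at 0.10 (SE 0.0758, adjusted p = 0.291). Depdc1b, 30649 bases beyond Elovl7, had 22 counts over the 4 shLacZ samples, 130 in shG0s2 and 89 in shRgs16. It is among the 7 called higher, but it passed the filter only because of its shG0s2 counts, so its test is not given. Ercc8, on the other side of Elovl7, was at -0.03 and not called. Psrc1, a spindle gene 67463 bases from 5330417C22Rik, had 41 counts over the 4 shLacZ samples, 987 in shG0s2 and 326 in shRgs16. It is also among the 7 called higher. Its shLacZ counts alone were too few for the filter in both comparisons with shLacZ, so its tests are not given. Sars and Tmem167b, the nearest genes to 5330417C22Rik, were at 0.14 and -0.25. Sars is among the 7 called higher. That call was lost with relative log expression scaling, without the filter, by DESeq2 and under the replicate block. Leaving out shLacZ replicate 1, 3 or 4 or any shG0s2 sample lost it too (0.12 to 0.15). Sprr3 and Sprr4, on either side of Sprr1a, were not tested for lack of counts.

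Markers of the other tissues in which these genes are known were mostly at or near 0, and 1 gene made up most of each larger sum. The squamous sum was low but higher in shG0s2 than in shLacZ. Of 10 markers of squamous epithelium, Krt14, Krt1 and Krtdap were at 0 in all 12 samples, and the summed level was 1.42 to 2.19 CPM in shLacZ, 2.32 to 2.95 CPM in shG0s2 and 0.800 to 1.37 CPM in shRgs16. Within that list Krt5 had 0 counts in every control sample and 20, 13, 16 and 19 in shG0s2, at least 17.97-fold higher against 3 counts over the group. Of 3 squamous markers tested, Krt5 was called higher in shG0s2, after passing the filter through shG0s2 alone, and 2 were not called. Lor, the most abundant, had means of 0.866 CPM in shLacZ and 0.848 CPM in shG0s2. The summed level of 10 neuronal markers was 21.5 to 26.7 CPM in shLacZ and 8.20 to 9.29 CPM in shG0s2, of which Syt1 made up most. Syt1 had means of 22.31 CPM in shLacZ and 5.607 CPM in shG0s2. Of 3 neuronal markers tested, Syn1 was called higher and Syt1 lower in shG0s2. The 10 kidney markers summed to at most 1.33 CPM, with Slc12a1, Aqp2, Slc5a2 and Kap at 0, and 10 markers of pluripotent cells to at most 1.29 CPM, with Pou5f1, Dppa4, Zfp42 and T at 0. The 10 gut markers summed to 55.1 to 66.7 CPM in shLacZ and 55.1 to 63.1 CPM in shG0s2. Most of this came from Fabp2, with means of 54.14 CPM in shLacZ and 49.9 CPM in shG0s2. Of 4 gut markers tested, Vil1 and Krt20 were called higher in shG0s2 and 0 lower, and Krt20 passed the filter through shG0s2 alone. Cdx1 and Sis were at 0, and Krt20, a keratin of surface gut epithelium, had 0 counts in shLacZ and 126, 144, 41 and 100 in shG0s2 (at least 108.6-fold higher against 3 counts over the group). Of 10 pancreatic acinar markers 6 were at 0, and their sum was 10.03 to 14.5 CPM in shLacZ and 9.68 to 11.5 CPM in shG0s2.

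Markers of other liver cells did move with the groups. All 10 stellate cell and fibroblast markers were higher in shG0s2, with a summed level of 1224 to 1515 CPM against 256 to 362 CPM in shLacZ and 480 to 906 CPM in shRgs16. Macrophage markers were higher in 9 of 10 (1107 to 1322 CPM against 776 to 853 CPM in shLacZ), and T and NK cell markers in 8 of 10 (38.9 to 45.3 CPM against 8.56 to 26.8 CPM). In shRgs16 they reached 1028 to 1225 CPM and 35.3 to 48.2 CPM, close to the range of shG0s2. All 8 tested oncofetal liver markers were higher, with sums of 131.7 to 513.5 CPM in shG0s2, 138.6 to 321.4 CPM in shRgs16 and 8.92 to 9.98 CPM in shLacZ. Dlk1, at or under 3 counts in every shLacZ sample, is among the 8 but passed the filter through shG0s2 alone. H19 gave most of the sums in the hairpin groups against G0s2 and Rgs16, with means of 244.3 and 171.7 CPM, but 1.229 CPM in shLacZ. Of 10 hepatocyte markers 9 were lower and 0 higher in shG0s2, but 6 lower and 1 higher with library size alone. Of 7 tested cholangiocyte markers Cldn7, Krt7 and Epcam were higher and 0 lower, with sums of 210 to 292 CPM in shG0s2 against 165 to 306 CPM in shLacZ. With library size alone 6 of the 7 were higher. Of 10 endothelial markers 2 were higher and 1 lower (428 to 456 CPM in shLacZ, 400 to 486 CPM in shG0s2), but 8 were higher and 0 lower with library size alone. In whole liver RNA, more cells of a type and more RNA per cell cannot be told apart, and the part of cell makeup in the levels of the 9 genes was not tested.

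In shRgs16 against shLacZ, Apela and Lrtm2 were above the control in every sample and 5330417C22Rik below it in CPM, that is 2 and 1 of 9 genes. For Apela and Lrtm2 the closest samples of both groups held only a few counts each. Over all tested genes 22.2% separated upwards and 22.7% downwards. The shRgs16 levels were part of the choice of the list, so nothing is read from these counts. The authors' deposited table gives log2 fold changes of 2.41 for Apela, 3.75 for Lrtm2 and -1.02 for 5330417C22Rik in that comparison. The same deposited table lists Kcnj14 at 2.08 and Ano3 at 2.54, both from at most 9 counts in the group. Elovl7 in shRgs16, at 0.291 to 0.785 CPM, overlapped the control range of 0.236 to 0.326 CPM. Both comparisons with shLacZ share the same 4 control samples.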

How the data were processed

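Total RNA of 12 mouse liver samples was analysed, 4 per group. The authors deposited 1 table per hairpin against shLacZ. Per the file headers, these hold estimated counts and TPM per gene and sample, and the authors' own comparison (a ratio, that ratio on the log2 scale, and p-values). The shLacZ columns were the same in both tables, which were joined. Per the submitters' processing notes, the tools were DESeq2, SAMtools 1.9, GATK 3.8, Bowtie2 2.2.9 and fastp 0.19.5. The build, annotation, counter and strand setting were not given in the sources used here. The 55536 identifiers all matched GENCODE on GRCm38, which gave the coordinates. A model divides reads between close relatives in estimated counts, whose single values are then uncertain.

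Counts were rounded. Low counts were removed by filterByExpr, TMM gave the scaling, and edgeR 4.0.16 (R 4.3.3) ran its robust quasi-likelihood F test, two-sided, with Benjamini-Hochberg adjustment over all genes and a false discovery rate of 0.05. Comparisons with shLacZ used 8 samples, shG0s2 against shRgs16 used 12. The fit was tested on simulated data. Levels are CPM with TMM over 12 samples, and ratios of summed counts per scaled library have exact binomial 95% intervals. Total counts were 18458222 to 27170419 per sample. Same-numbered samples of different groups did not deviate together (correlations -0.067 to 0.135), so the numbers were not taken as pairs. The 9 genes, the lists of relatives and markers, the motifs and the rules for naming genes were chosen with earlier results of these data known. Named are the 9 genes, the targeted genes, relatives, protein-coding neighbours within 100 kb, the 5 most alike genes and the first 5 with the off-on pattern; Krt5, Krt20, Ivl and Sprr2a2 were named after their values were seen. Alternatives were DESeq2 1.42.0, other scalings and filters, a replicate block, all samples in 1 model and each sample left out.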

Additional observations from a re-analysis of the deposited data

Results flagged for a closer look

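In 6 of 48 groups of 4 samples checked over the 9 genes and 7 others, 1 sample stood far from the rest. Chance flags about 1 in 20 groups, a rate that does not apply to 3 of these 6, in which the other 3 samples had 0 counts and any single count stands apart. Sprr1a in shLacZ replicate 1 had 1.303 CPM against 0 to 0.221 CPM in the other 3. In shRgs16 replicate 2, Apela had 0.8002 CPM (others 0.1958 to 0.2855) and Lrtm2 had 0.8366 CPM (others 0.07831 to 0.1989). Kcnj14 had 0.04421 CPM in shLacZ replicate 3 and 0.2387 CPM in shRgs16 replicate 4, and Ano3 had 0.04421 CPM in shLacZ replicate 3, with 0 counts in the other 3 samples each time. The value of 0.04421 CPM is a single count.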

How the results depend on the processing

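Counts of called genes stayed within 1.5 times of the main values (9431 in shG0s2 against shLacZ, 7518 in shRgs16 against shLacZ, 6640 in shG0s2 against shRgs16) in every alternative run. Without 1 sample they were 8758 to 9300, 6487 to 7396 and 5779 to 6869. With the replicate block they were 9299, 7104 and 6534; the numbers do not pair the samples. With library size alone the split of higher and lower calls was 10067 and 1246, 7686 and 1279, and 6054 and 1568. The off-on pattern, 70 genes, moved to 17 with both other groups under 0.2 CPM, 199 under 1 CPM, 24 with shG0s2 at 2 CPM or more, 164 at 0.5 CPM or more, and 171 with the limit on shLacZ only; without 1 sample it was 62 to 84. Of 334 alternative values for the fold changes of the 9 genes, whose direction is fixed by how they were chosen, 20 moved by more than the spread between samples, 6 of those as ratios of deposited TPM (Elovl7 6.12, 5330417C22Rik 3.79, Sprr1a 6.65, Apela 7.20, Lrtm2 8.38, Nudt11 3.98). Other named genes lost a call in 71 alternative values and gained one in 33. With library size alone, log2 fold changes reversed for Hsd17b12 (0.28), Hacd1 (0.48), Hacd2 (0.46), Nudt3 (0.39), Junb (0.47), Tmem167b (0.24), Adipor2 (0.33) and Plpp6 (0.37) in shG0s2, and for Tmem167b (0.29) and Cyth2 (0.22) in shRgs16. That scaling moves the median of all genes. Depth limits Kcnj14, Ano3 and Lrtm2, whose control sums are 1 or 2 counts.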
